A study of Drosophila melanogaster with 2 samples.

Results

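Deep intronic summits were the places where an Eyeless fusion protein peaked far inside introns of the Drosophila melanogaster genome. They were chosen from the authors' thresholded list of regions for both replicates together, here called the optimal regions, in the genome build dm6. A summit, the position in a region with the strongest signal, was kept when it lay inside a protein-coding gene, in no exon of any protein-coding gene, and more than 5000 bp from every transcription start site (TSS) that a protein-coding gene uses. This rule kept 1027 of the 6835 optimal regions, and it used positions and no measured level. The data are chromatin immunoprecipitation followed by sequencing (ChIP-seq) of whole wandering larvae of the third instar, with both sexes pooled. The flies were a transgenic line that stably expressed ey with GFP fused at its C-terminus (ey-eGFP). The labels give the antibody as anti-GFP in their description and as ey in another entry. Both libraries, biological replicates 1 and 3, form this 1 group, and conditions could not be compared. Whole larvae mix all tissues, so a region cannot be assigned to eye, brain or any other cells.

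Eyeless is one of the fly Pax6 proteins, transcription factors that touch DNA through a paired domain and a homeodomain. It is known for its requirement in eye development and also acts in the larval brain. Introns of developmental genes often hold enhancers, stretches of DNA that control a promoter from a distance, and the nearest gene is not always the one they control. ChIP recovers DNA that the tagged protein contacts directly or through other proteins, so a region is a place of recovery and not by itself a binding site or an enhancer.

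The sequence under the strongest summits is printed because several results further on concern base composition around the summit, and the windows differ among themselves in it. The windows cover 50 bp on either side of the summit and are read 5′ to 3′ on the plus strand of dm6 (Release 6). Capitals mark runs of 6 or more bases that are all A or T. The 6 windows printed belong to the 6 strongest members. They are, in order of signal, chr3L:3060747-3060847 in CG32486, chr3R:17704350-17704450 in osa, chr3L:18011857-18011957 in Eip75B, chr3R:6424063-6424163 in gpp, chr3L:19903214-19903314 where Mi-2 and Su(Tpl) overlap, and chrX:2300661-2300761 in Raf.
CG32486: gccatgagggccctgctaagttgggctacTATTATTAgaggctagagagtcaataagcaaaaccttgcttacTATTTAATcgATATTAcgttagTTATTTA
osa: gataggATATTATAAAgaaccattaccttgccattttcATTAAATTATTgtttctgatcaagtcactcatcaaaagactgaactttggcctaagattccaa
Eip75B: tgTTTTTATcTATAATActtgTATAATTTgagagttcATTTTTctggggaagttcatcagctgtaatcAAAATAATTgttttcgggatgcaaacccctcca
gpp: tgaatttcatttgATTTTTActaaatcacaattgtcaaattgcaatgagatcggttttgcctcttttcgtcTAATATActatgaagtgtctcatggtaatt
Mi-2 and Su(Tpl): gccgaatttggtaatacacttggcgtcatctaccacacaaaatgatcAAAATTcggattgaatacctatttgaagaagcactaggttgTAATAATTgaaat
Raf: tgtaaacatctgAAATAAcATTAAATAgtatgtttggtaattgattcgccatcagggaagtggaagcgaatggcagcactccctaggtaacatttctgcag
The Eip75B window holds 5 such runs with 37 bases between them, the CG32486 window 4 runs with 29 bases, and the osa window 2 runs with 21 bases. The gpp, Mi-2 and Raf windows hold 2 runs with 14 bases each. GC content was 31.7% in the osa window against 53.0% in its flanks, here 2 equally wide windows whose centres lie 300 bp below and above the summit. In the gpp window it was 29.7% against 48.5%, and in the Mi-2 window 34.7% against 48.5%. The contrast was smaller in the other 3, with 32.7% against 38.1% in Eip75B, 37.6% against 40.6% in CG32486 and 39.6% against 41.1% in Raf.

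Short words that transcription factors are known to read were searched on both strands of the same windows. The word TAATCC, read by homeodomain proteins of the Bicoid and Otx kind, was the one gained at the summit with the smallest p, so 4 strong examples are shown with 41 bases each. They lie at chrX:1951884-1951924 in Hr4, chr3R:14413531-14413571 in cv-c, chr3L:8455729-8455769 in the corepressor gene Gug and chrX:21073113-21073153 in bves. Capitals mark the word or its reverse complement on the plus strand.
Hr4: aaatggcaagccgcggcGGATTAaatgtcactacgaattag
cv-c: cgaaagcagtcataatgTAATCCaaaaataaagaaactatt
Gug: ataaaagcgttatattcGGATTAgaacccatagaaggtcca
bves: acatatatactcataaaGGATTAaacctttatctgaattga
The deposited signals of these 4 regions were 1053.2, 512.5, 404.4 and 367.8, and the word lay 8, 10, 6 and 14 bp from the summit. The word TTCACGC, a core of paired-domain sites of the Pax6 kind, is shown because it occurred in only 2 of the 1027 windows. These are chrX:9416214-9416254 in mgl, which encodes the endocytic receptor Megalin, and chr3R:16676558-16676598 in the Hox gene Ubx.
mgl: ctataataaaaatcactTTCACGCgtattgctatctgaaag
Ubx: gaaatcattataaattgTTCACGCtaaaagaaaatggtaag
Both were weak regions, with signals of 86.4 and 85.9, and the word lay 18 and 42 bp from the summit. The region in mgl overlapped no region of replicate 1.

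Members became sparser with distance from promoters. The rule could take 30.2 Mb of the main arms, called eligible sequence here, and the 1027 members gave 34.0 per Mb (95% exact Poisson interval 32.0 to 36.2). Between 5 and 7.5 kb from a TSS there were 51.99 members per Mb (46.5 to 58.0), and between 10 and 15 kb there were 44.5 (39.2 to 50.4). Beyond 30 kb there were 7.61 per Mb (5.75 to 9.89), with 56 members in 7.36 Mb, and this interval does not overlap that of any nearer bin. Annotated transposable elements covered 7.34% of eligible sequence in the nearest bin and 10.9% beyond 30 kb. Without them the densities were 56.1 and 8.40 per Mb. Signal did not fall in the same way, since the median was 142.6 in the nearest bin, 146.2 between 20 and 30 kb and 129.4 beyond 30 kb. Such intervals cover only the error of counting regions, which are not replicates.

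**Figure D1:**
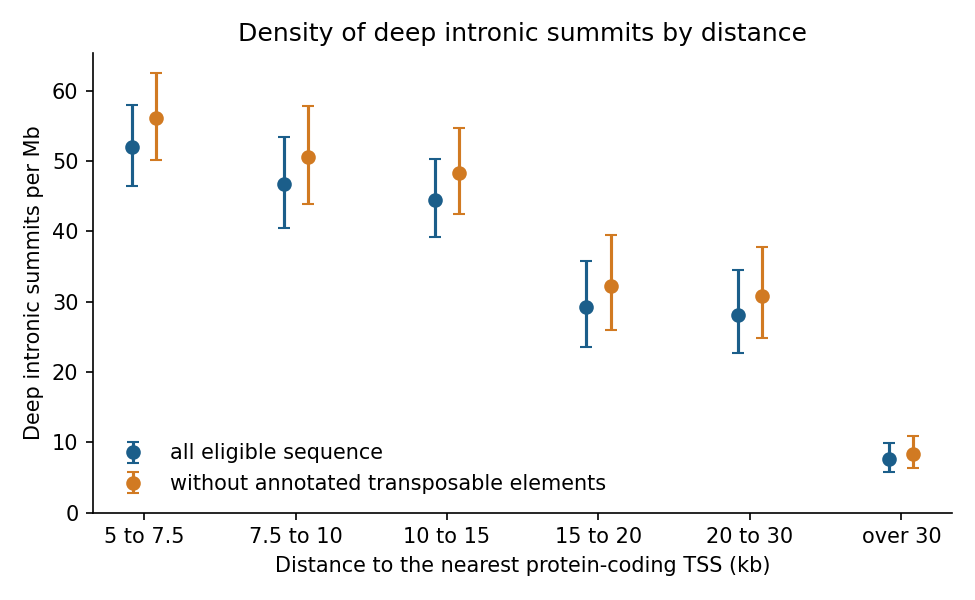
Deep intronic summits per Mb of eligible sequence (vertical axis) by distance to the nearest protein-coding TSS in kb (horizontal axis), with 95% exact Poisson intervals, over all eligible sequence and without annotated transposable elements. The density lies at 44.5 or above in each of the first 3 bins and at 7.61 beyond 30 kb over all eligible sequence.

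The median member lay 9795 bp from its nearest TSS, with a range from 5014 to 86596 bp. It lay 4673 bp from the nearest protein-coding exon, in an exon-free gap whose median length was 16640 bp. For 679 members (66.1%) the nearest TSS belonged to a gene that held the summit, and 33 members lay in more than 1 gene. The members just inside the distance limit were in Lrch, p130CAS and Mnt, at 5014, 5016 and 5022 bp, with signals of 220.8, 149.3 and 223.4. Those just outside were in ovo, Nuak and CG46339, at 4974, 4978 and 4983 bp, with signals of 101.3, 292.8 and 333.2. The 3 farthest members all lay in hth, which encodes the homeodomain protein Homothorax, at 80970, 83525 and 86596 bp. Their signals were 119.2, 115.6 and 85.4.

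First introns held more of the members than of the sequence. In all, 524 members (51.0%, exact interval 47.9 to 54.1) lay in the first intron of at least 1 transcript, against 30.9% of eligible sequence. First introns lie nearer to start sites, so the share was repeated by distance. It was 63.5% (58.0 to 68.7) of members against 45.8% of sequence between 5 and 7.5 kb, 48.8% (42.5 to 55.2) against 36.5% between 10 and 15 kb, and 28.6% (17.3 to 42.2) against 10.5% beyond 30 kb. Between 20 and 30 kb the interval, 21.3 to 40.9% around 30.4%, includes the 24.8% of the sequence, and between 15 and 20 kb the interval of 27.8 to 48.3% includes 29.1%. Annotated transposable elements held 2 members (0.195%, 0.0236 to 0.702) against 8.77% of eligible sequence. The treatment of reads that map to several places was not stated in the labels or file headers, and its part in that share was not tested. Within 500 bp of the TSS of a noncoding RNA lay 15 members (1.46%, 0.820 to 2.398), against 0.943% of eligible sequence.

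Distances between members were counted without a comparison to other classes or to random positions, so the counts do not show clustering. Another member lay within 500 bp of 102 members (9.93%), within 2000 bp of 379 (36.9%) and within 5000 bp of 584 (56.9%). The coordinates of 14 members' regions were shared with another optimal region. Some neighbours, among them members in kirre and fz, overlap the same region of a replicate list and so carry the same replicate signal. On the arms, density ran from 43.0 per Mb on X (37.5 to 49.0) and 41.9 on 2L (36.2 to 48.2) to 33.7 on 3L, 29.97 on 3R and 27.1 on 2R (22.8 to 32.0). The short chromosome 4, which is mostly heterochromatic and carries ey itself, held 1 member in 0.288 Mb, or 3.48 per Mb (0.0880 to 19.4). That member lay in Cadps and had a signal of 169.4.

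The strongest members rank near the top of both replicates. They were picked by their signal in the optimal list, made from both replicates together, so this was fixed in part by the choice. The deposited signal is the authors' own strength value, with a scale that is not stated, and levels are not compared between lists. In CG32486, at chr3L:3060554-3061036 and 5718 bp from the TSS of CG16753, the signal was 2777.9 in the optimal list, 1361.6 in replicate 1 and 1459.3 in replicate 3, rank 6 in both replicate lists. In osa, which encodes a subunit of the Brahma chromatin remodelling complex, the member at chr3R:17704190-17704685 had 2177.9, with 1165.2 and 1066.7 in the replicates. It lay 13950 bp from a TSS of osa, in no first intron. In Eip75B, an ecdysone-induced nuclear receptor, the member at chr3L:18011640-18012138 had 1639.8, with 997.2 and 690.0. These first 3 took ranks 6, 16 and 26 in replicate 1 and 6, 19 and 58 in replicate 3.

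In gpp, which encodes the H3K79 methyltransferase Grappa, the strongest member had a signal of 1370, with 794.6 in replicate 1 and 606.1 in replicate 3, and lay 17256 bp from a TSS. The member where Mi-2, a nucleosome remodeller, and Su(Tpl), an elongation factor gene, overlap had 1244.6, with 681.6 and 596.2. Raf, the kinase downstream of Ras, held one at 1237.7, with 653.9 and 606.8. Hr4, a nuclear receptor of the ecdysone cascade, held a pair of members with nearly equal values, 1053.5 and 1053.2, that lay 5822 and 9972 bp from its TSS. The member in CG42238 had 984.4, with 655.0 and 362.9, and at 40559 bp was the farthest from a TSS among the 15 strongest. The other 6 of the 15 lay in shn (950.3), Dad (895.8), Ptp61F (803.9), Psc (801.4), fz (794.1) and plum (768.4). Of these, shn and Dad act in Dpp signalling, Psc is a Polycomb group protein, Ptp61F a tyrosine phosphatase and fz a Wingless and planar polarity receptor. All 15 were among the 6835 strongest regions of each replicate, as were all of the 206 strongest members.

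Deep intronic regions were weaker than intronic regions nearer to a TSS, and not detectably different from distal intergenic ones. Their median signal was 136.7 (quartiles 99.7 and 216.5), against 158.1 over the 1700 intronic regions that lay over 500 and up to 5000 bp from a TSS. It was 139.6 over the 673 intergenic regions more than 5000 bp from a TSS, and 155.6 over the 2673 promoter regions within 500 bp of one. On the log2 scale the mean difference was −0.19 from near intronic (95% interval −0.26 to −0.12, permutation test over regions, two-sided, adjusted p = 1.5e-05) and −0.22 from promoter regions (−0.28 to −0.15, permutation adjusted p = 1.5e-05). Both raw p are the smallest that 100000 permutations can give. From distal intergenic regions it was −0.02 (−0.10 to 0.06, permutation adjusted p = 0.645). Each replicate's own signal over the same regions gave the same order against near intronic regions, with medians of 79.6 against 88.7 in replicate 1 (difference −0.15, permutation adjusted p = 1.8e-04) and 65.6 against 81.7 in replicate 3 (−0.29, permutation adjusted p = 1.5e-05). Of the 683 strongest optimal regions, 74 were deep intronic, which is 7.21% of the members (5.70 to 8.96), where 10.4% of near intronic and 12.2% of promoter regions were among them. These p-values measure the spread between regions of 1 group of 2 libraries.

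**Figure D2:**
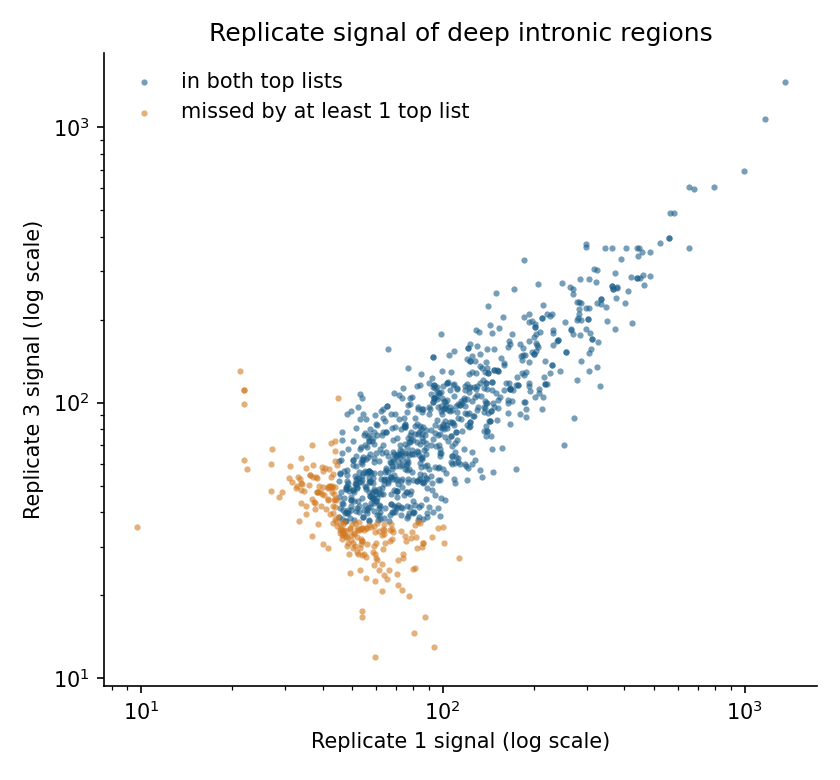
Signal of each deep intronic region in replicate 1 (horizontal axis) and replicate 3 (vertical axis), both on log scales, for the 1010 members found in both replicate lists. Members in the top list of both replicates are blue, the rest orange, and the orange points sit at the low end of the axes.

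Per the deposited file listings, the replicates themselves entered the choice of the optimal regions, so overlap of the members with either replicate is given as a description. Taking the 6835 strongest regions of each replicate, 798 members (77.7%, exact interval 75.03 to 80.2) overlapped a region of both, 122 only of replicate 1, 99 only of replicate 3, and 8 of neither. Among the members, signal in replicate 1 and replicate 3 had a Spearman's rank correlation of 0.754 over 1010 regions, a description of regions that share these libraries. The share went with signal, which the cut on each replicate's signal fixes in part, from 100% in the 206 strongest members (signal 251.2 and above) to 23.4% in the 205 weakest (94.5 and below). It was lower than the 81.8% of near intronic regions (difference −4.06 percentage points, Fisher's exact test, adjusted p = 0.017) and the 81.7% of promoter regions (−4.00, exact adjusted p = 0.017). Against distal intergenic regions, at 79.1%, the difference was −1.35 (−5.34 to 2.65, exact adjusted p = 0.548). When any region of a replicate's whole list counted, neither difference held, at −0.302 and 0.402 percentage points (exact adjusted p = 0.516 for both).

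A dip in GC content marked the summits. The mean GC content of the summit windows was 33.0% (SD 7.40, n = 1027 regions) and that of the flanks was 45.5%, a difference of −12.5 percentage points (SD 10.7). The summit window was the lower in 886 of 1027 members (86.3%). The 206 strongest members had a mean difference of −14.9 and the 205 weakest −10.7. The pooled list is described by its title as peaks and background. In it, 4281 regions met the same position rule but lay outside the optimal list, with a median signal of 25.6 in that list. Their mean difference was −4.50, and the members minus these gave −8.00 (permutation test over regions, p = 1e-05, the smallest the permutations can give). These regions thus include background and are not a set of comparable called regions. Runs of 6 or more A or T took up 25.4 bases of a summit window on average (SD 13.5), against 12.7 and 12.4 in the flanks. Such runs took up about as much in the other classes, with 24.6 bases in near intronic, 25.4 in distal intergenic and 24.3 in promoter windows.

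The dip was not particular to deep introns. It was −10.9 in near intronic, −13.95 in distal intergenic and −8.33 in promoter regions. The members' dip was deeper than that of near intronic regions by −1.58 (interval −2.40 to −0.762, permutation test, adjusted p = 2.55e-04) and of promoter regions by −4.16 (−4.98 to −3.34, permutation adjusted p = 3e-05), and shallower than that of distal intergenic regions by 1.46 (0.387 to 2.52, permutation adjusted p = 0.00712). With flanks 500 bp away, the differences from near intronic (−0.718, permutation adjusted p = 0.113) and promoter regions (−0.150, permutation adjusted p = 0.737) no longer passed, and the dip itself was −9.89. The difference from distal intergenic regions did not pass beyond 10000 bp from a TSS (0.800, permutation adjusted p = 0.289) or in the 3417 strongest optimal regions (1.27, permutation adjusted p = 0.101). In windows of 21 bp at the summit itself, mean GC was 31.6% in deep intronic, 31.9% in near intronic, 31.8% in distal intergenic and 35.4% in promoter regions.

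**Figure D3:**
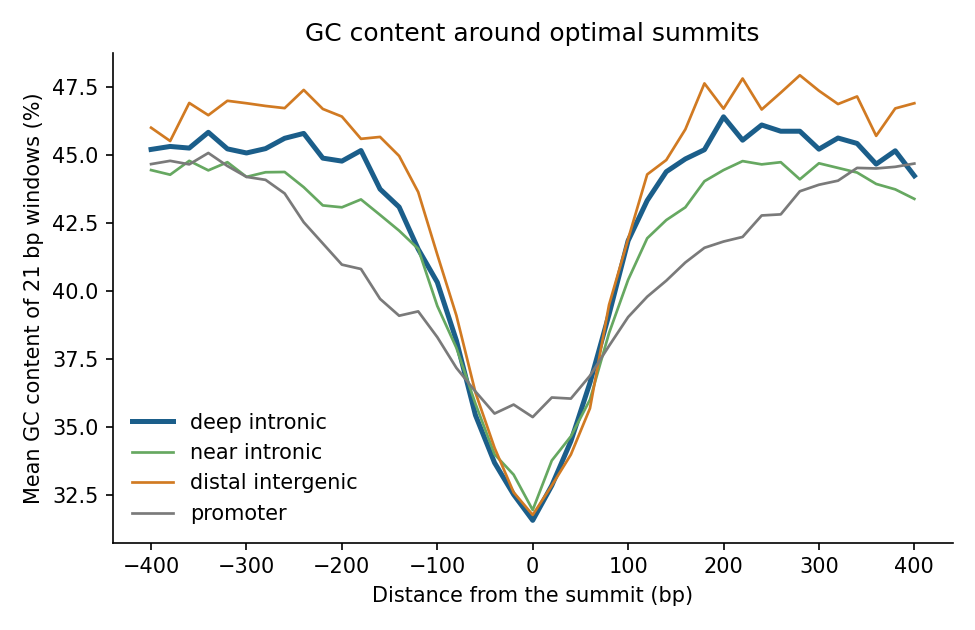
Mean GC content in percent (vertical axis, which does not start at 0) of 21 bp windows by distance from the summit in bp (horizontal axis), for 4 classes of optimal regions. The 3 classes away from promoters reach 31.6 to 31.9% at the summit, and promoter regions reach 35.4%.

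Of 24 words searched, 4 (16.7%) were more frequent and 6 (25%) less frequent in the members' summit windows than in the flank of lower coordinate, by an exact binomial test over members with the word in 1 of the 2 windows, at an adjusted p under 0.05. TAATCC was in 51 summit windows (4.97%) against 21 and 24 in the flanks of lower and higher coordinate (exact adjusted p = 0.00321), and in 3.91% of all optimal summit windows. TAATTA, the core of most homeodomain sites, was in 92 (8.96%) against 59 and 43 (exact adjusted p = 0.0216), and in 8.79% of all optimal windows. TGTTTAC, a forkhead word, was in 30 (2.92%) against 12 and 12 (exact adjusted p = 0.0216), and in 2.87% of all optimal windows. AGGATAA was in 15 (1.46%) against 4 and 8 (exact adjusted p = 0.0461), and in 0.980% of all optimal windows. The shares of TAATTA and TGTTTAC were thus close to those of optimal summits in general. The paired-domain core TTCACGC was in 2 summit windows against 2 and 4 in the flanks (exact adjusted p = 1), and in 0.351% of all optimal windows.

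The other 6 words that passed were rarer at the summit. CACACACA, a dinucleotide repeat, was in 8 summit windows against 50 and 48 in the flanks (exact adjusted p = 3.77e-07). CAGCTG, an E-box read by basic helix-loop-helix proteins, was in 18 against 59 and 49 (exact adjusted p = 2.62e-05). GAGAGAG, read by GAGA factor, was in 9 against 31 and 30 (exact adjusted p = 0.00321). GCCGNCGC was in 3 against 18 and 18, CACGTG in 4 against 17 and 11, and TGACAG in 20 against 39 and 43 (exact adjusted p = 0.00715, 0.0216 and 0.0436). In the order given, these 6 words were in 0.779, 1.75, 0.876, 0.292, 0.390 and 1.95% of the members' summit windows. Over all optimal summit windows the shares were 1.02, 3.39, 1.10, 0.278, 0.732 and 2.94%. Of the 4 gains, 0 passed when windows reached 25 bp to either side (0 at an unadjusted p under 0.05) and 0 in the 3417 strongest optimal regions (2 unadjusted), and TAATCC also missed with 100 bp to either side (exact adjusted p = 0.0596). Against the flank of higher coordinate AGGATAA (exact adjusted p = 0.303) and CACGTG (0.237) missed. With flanks 500 bp away AGGATAA (exact adjusted p = 0.388), TGTTTAC (0.223), CACGTG and GAGAGAG (0.184 for both) and GCCGNCGC (0.0813) missed. The gain of TAATCC passed in each replicate's own list, that of TAATTA missed in replicate 1 (exact adjusted p = 0.107), and that of TGTTTAC missed in both (0.395 and 0.0894). AGGATAA missed in replicate 3 (0.0599). Of the losses, CACGTG and GAGAGAG missed in replicate 1 (0.0608 and 0.161), and TGACAG missed in both (0.391 and 0.0720).

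Against the other classes, 4 of 72 comparisons of a word's share (5.56%) passed Fisher's exact test, all against promoter regions. TATCGATA, the DREF word of housekeeping promoters, was in 2 members (0.195%) and in 98 promoter regions (3.67%, exact adjusted p = 4.05e-10). The members that held it were in Dmtn and ed. CAGCTG was in 1.75% against 5.39% (exact adjusted p = 7.86e-06), TGACAG in 1.95% against 3.97% and AAAAAAAA in 9.64% against 6.66% (exact adjusted p = 0.0477 for both). TGACAG missed the threshold in each replicate's own list (exact adjusted p = 0.432 in replicate 1 and 0.233 in replicate 3). In the 3417 strongest optimal regions none of the 4 passed, with 0.0641 for TATCGATA and for CAGCTG. No word differed past the threshold from near intronic or distal intergenic regions.

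Over all 2080 hexamers, with a hexamer and its reverse complement taken as 1, 402 (19.3%) were more frequent and 603 (29%) less frequent at the summit than in the flank of lower coordinate. The number of G or C letters sorted them. All 36 hexamers without such a letter and 178 of the 192 with 1 were more frequent at the summit, and none of these was less frequent. Of the 36 made only of G and C, 32 were less frequent. The smallest p belonged to TTAAAA, in 29.99% of summit windows against 10.5% of flanks (exact adjusted p = 8.25e-25). It was followed by TTTAAA (20.4% against 4.97%), ATATTA (19.5% against 4.67%) and AAATAT (33.1% against 13.3%). Over all optimal summit windows the shares of these hexamers were 31.4, 20.1, 18.2 and 31.5%. Their shares at the summit were thus not particular to deep introns. Each of the first 10 by p holds no G or C. Hexamers overlap one another and share windows, so these counts are not counts of independent sites.

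**Figure D4:**
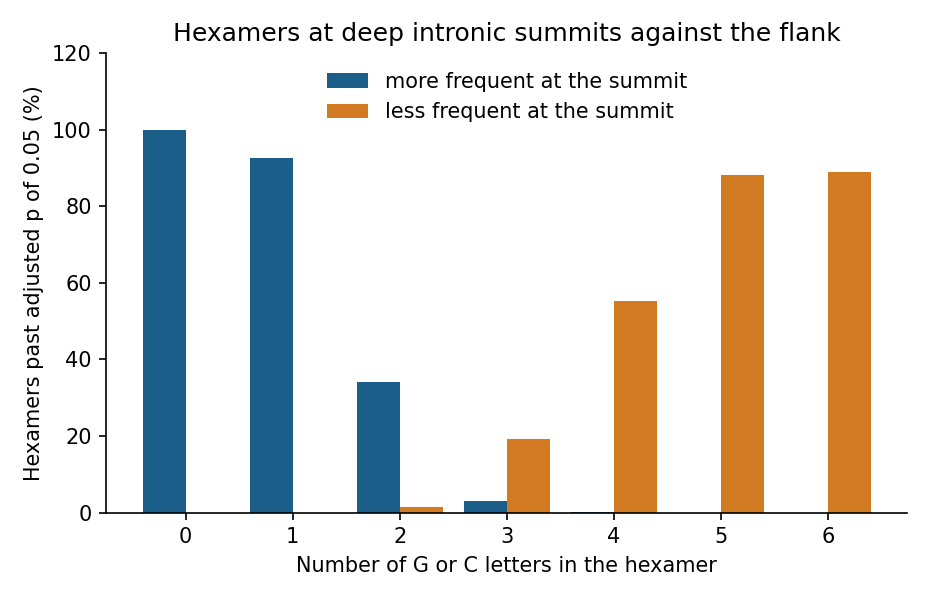
Percent of hexamers (vertical axis) past an adjusted p of 0.05 in each direction, by the number of G or C letters in the hexamer (horizontal axis). All hexamers without G or C were more frequent at the summit, and 88.9% of those made of G and C alone were less frequent.

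Hexamers with the same number of G or C letters were ranked by their summit to flank ratio, with the flank of lower coordinate alone. On this flank the homeodomain words ranked apart. TAATCC, with 2 such letters, had a summit to flank ratio higher than 90.0% of the 492 hexamers of that kind. TAATTA, with none, had a ratio higher than only 8.33% of the 36 of its kind. Most words of pure A and T thus gained more against that flank. TAATTA was in 59 windows of that flank and in 43 of the other, for which no such rank was computed. AGGTCA, the half-site of many nuclear receptors, had a ratio higher than 97.7% of the 640 hexamers with 3 such letters. It was in 27 summit windows against 12 and 19 in the flanks, and missed the threshold among the 24 words (exact adjusted p = 0.0517). AGGTCA also missed in each alternative setting, with an exact adjusted p of 0.437 against the flank of higher coordinate and 0.577 in replicate 3's own list. Only 20 of the 402 gained hexamers held 3 or more G or C letters. Among these, ACAGTG had the smallest p, in 7.30% of summit windows against 3.70% of flanks (exact adjusted p = 0.00155). It and AGTGCA, in 10.3% against 6.62% (exact adjusted p = 0.00768), were picked after the values were seen.

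The members fell in 426 of the 1852 protein-coding genes that hold eligible sequence (23%). Of these genes, 176 held 1 member, 195 held 2 to 4, and 55 held 5 or more. The 55 held 360 members, 35.1% of all. Of the host genes, 403 also held a deep intronic region in the 6835 strongest regions of replicate 1, which is 95.3% of that list's 423 genes. In replicate 3 there were 396, which is 92.5% of 428. The replicates entered the choice of the optimal regions, so these shares are a description and no test of agreement.

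Kirre, an immunoglobulin-family adhesion protein of myoblast fusion and eye patterning, held the most, with 19 members. Their signals ran from 87.7 to 611.2 (median 180.7), from 31.2 to 379.0 in replicate 1 and from 39.7 to 263.3 in replicate 3, and 18 of 19 were in the top list of both. In the 394149 bp of this gene, 15 of them lay within 47943 bp of each other. None was in a first intron, and only 6 had a TSS of kirre as the nearest. Tet, the fly homologue of TET dioxygenases, held 16 (81.1 to 394.3), and 12 of these were in both top lists.

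Transcriptional corepressors came next. Scribbler (sbb) held 12 members, all in a first intron and within 18055 bp, with signals from 81.9 to 626.4. Snoo, a corepressor of the Sno family, also held 12, all in a first intron, from 86.9 to 565.2. Its members had a mean GC difference of −20.6, and the summit was the lower in all 12. SKIP, a Shal channel interacting protein, held 11 (84.0 to 436.3). With 9 each followed fz (95.3 to 794.1), the atypical cadherin gene ds (84.0 to 533.2), cv-c (93.0 to 512.5) and hth (85.4 to 305.2). Eip75B held 8 (81.1 to 1639.8), and 5 of these were in both top lists. Ptp61F, tara and Mnt held 8 each as well. Per eligible length, tara and Mnt stand highest among these 13 genes, at 496.1 and 735.1 members per Mb, where kirre had 81.3.

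**Figure D5:**
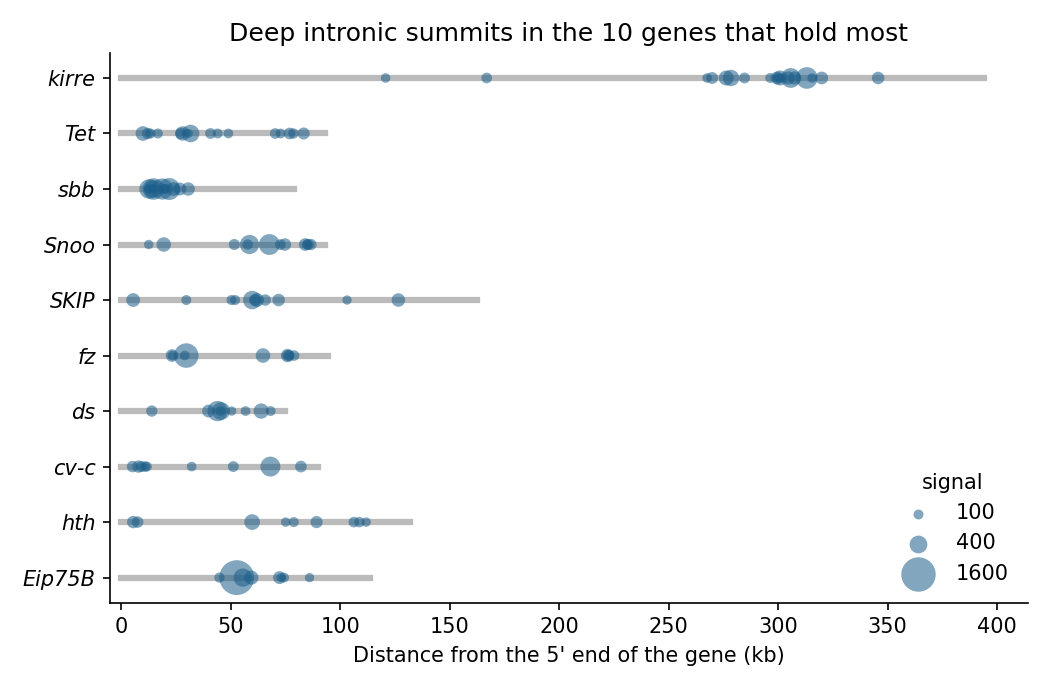
Deep intronic summits along the 10 genes that hold most of them, by distance from the 5′ end of the gene in kb (horizontal axis). Grey bars give the length of each gene, and the area of a point grows with the deposited signal. In kirre 15 of 19 members lie within 47943 bp, and in sbb all 12 lie within 18055 bp.

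Genes that held a member more often had an optimal summit at their own promoter as well. An optimal summit lay within 500 bp of a TSS of the gene itself in 165 of the 426 host genes (38.7%, exact interval 34.1 to 43.5), against 332 of the 1426 other genes with eligible sequence (23.3%, 21.1 to 25.6). Host genes hold more eligible sequence, so the shares were repeated by its length. With more than 20 kb they were 39.7% (32.9 to 46.9) against 11.2% (7.42 to 15.9), and between 5 and 20 kb 36.6% (29.4 to 44.3) against 20.1% (16.2 to 24.3). Under 5 kb they were 41.8% against 28.5%, and the intervals overlap. Of the 10 genes with most members, sbb and Eip75B had such a summit, and the other 8 had none.

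Hormone genes held members more often than the 23% of all eligible genes, given here as counts with no test. Genes with more eligible sequence held one more often, 30.1% of those with 5 to 20 kb and 46.1% of those with more than 20 kb. Of the nuclear receptors, many of which are transcription factors switched by hormones, 8 of 11 eligible genes held one, with 28 members and 112 per Mb (exact interval 74.6 to 162), where all eligible sequence had 34.0. Their median eligible length was 15600 bp, against 6088 bp over all eligible genes. Beside Eip75B and Hr4 these were led by knrl (2 members, strongest signal 424.5) and EcR, the ecdysone receptor (6, 392.4). Hr3, Hr38, ftz-f1 and Eip78C held 1 or 2 each. Of the wider ecdysone response, which shares 7 of its 13 host genes with the receptors, 13 of 18 eligible genes held one (102 per Mb, 74.5 to 137), among them the ABC transporter gene E23 (4, 609.9).

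Chromatin regulators had the highest density of the lists, with 13 of 25 eligible genes and 178 members per Mb (136 to 229). All eligible genes had 23% and 34.0 per Mb. Of the 61 members, Tet and sbb hold 28, tara 8 and Tlk 2. Tet, sbb, tara and Tlk have 65798, 35559, 16125 and 18477 bp of the list's 0.342 Mb of eligible sequence. The density without these genes was not computed. The lists were chosen with earlier results of these data known, so the highest rank of this list is only a description. Osa held 6, Mi-2 2 and Psc 1. Of 46 eligible homeodomain genes, 16 held a member (49.9 per Mb, 35.3 to 68.5), led by the Hox gene Antp (5, 485.9), hth, the Iroquois gene caup (1, 281.6) and the engrailed paralogue inv (3, 277.2). Of 8 eligible genes of retinal determination, the circuit in which Eyeless is best known, only hth held any (12.5%). Its 9 members gave the list 64.8 members per Mb (29.6 to 123), and hth holds 107404 bp of the list's 0.139 Mb of eligible sequence. The median eligible length of these 8 was 4527 bp. Beyond 10000 bp from a TSS the share was 33.3%, against 25.9% of all eligible genes, but it too rests on hth alone among few eligible genes.

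In Notch signalling, 7 of 10 eligible genes held one (68.1 per Mb, 35.2 to 119), with the receptor gene N (2, 676.9), the protease gene kuz (2, 309.5), the coactivator gene mam (2, 216.3) and the corepressor gene spen (2, 145.9). The Notch ligand gene Delta also held members (2, 565.7) but was not among the genes counted for this list. In EGFR and Ras signalling, 8 of 13 did (129 per Mb, 87.5 to 183), with Raf (6, 1237.7), the repressor gene cic (5, 510.0), S, which encodes the ligand-processing protein Star (5, 374.4), and the protease gene ru (1, 223.8). In Wingless signalling, 6 of 12 did (84.0 per Mb, 54.9 to 123), with the receptor genes fz (9, 794.1), arr (2, 607.4) and fz2 (4, 395.7) and the glypican gene dlp (5, 357.5). In the Hippo pathway, 7 of 11 did (118 per Mb, 75.1 to 178), with ex (3, 732.3), ds (9, 533.2), msn (2, 265.2) and the kinase gene wts (1, 225.7). In Dpp signalling, 6 of 11 did (124 per Mb, 72.1 to 198), with shn (2, 950.3), Dad (2, 895.8), the receptor gene tkv (5, 698.0) and the ligand gene dpp (1, 431.7). Counts in brackets are members, followed by the strongest signal. Over all eligible genes 23% held a member, at 34.0 per Mb. The median eligible length was 11572.5 bp in the Notch, 18777 bp in the EGFR and Ras and 16138 bp in the Wingless list. It was 7842 bp in the Hippo and 8415 bp in the Dpp list, against 6088 bp over all eligible genes. Genes with more eligible sequence held a member more often, and the shares are not adjusted for this. In the 3417 strongest optimal regions, where 14.2% of all eligible genes held a member, the share fell to 30% in the Notch list, 36.4% in the Hippo list, 15.2% in the homeodomain list and 28.2% in the list of kinases and phosphodiesterases.

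Of 7 eligible JNK pathway genes, puc, a JNK phosphatase (4, 576.7), and msn held some (120 per Mb, 43.9 to 260). Of 7 eligible insulin and TOR genes, Myc (3, 663.4), InR, the insulin receptor (3, 225.7), and REPTOR (1, 130.8) did (129 per Mb, 51.9 to 266). Of 39 eligible kinase and phosphodiesterase genes, a list that also takes in guanylate-kinase scaffolds such as pyd, 17 did (57.7 per Mb, 40.6 to 79.5). They were led by pyd (6, 561.2), Hipk (4, 524.4), Pka-C3 (1, 381.6) and drl (3, 365.6). The shares of these lists were 28.6% for JNK, 42.9% for insulin and TOR and 43.6% for kinases and phosphodiesterases. All eligible genes had 23% and 34.0 per Mb, and the JNK share was near that. Median eligible lengths were 6236, 4153 and 9851 bp, against 6088 bp over all eligible genes.

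Genes for neuronal channels and receptors lay below all eligible genes, of which 23% held a member, both in their share and per Mb. Only 3 of 49 eligible genes of this list held a member, with 4 members in 1.09 Mb, or 3.66 per Mb (0.998 to 9.38), with a median eligible length of 19698 bp. They were nAChRalpha6 (2, 199.1), Shal (1, 107.9) and mAChR-B (1, 93.1). Of 24 eligible genes for RNA-binding proteins, 11 held one (45.8%), at 17.9 per Mb (11.1 to 27.4), led by mub (2, 621.8), brat (3, 471.4) and pum (3, 294.0). Axon guidance and adhesion genes, of which 16 of 58 held one, had 27.7 per Mb (21.2 to 35.5), an interval that includes the 34.0 of all eligible sequence, and 19 of their 61 members were those of kirre. The next by signal were DIP-alpha (2, 360.2), Sema1a (6, 278.3) and Fas3 (6, 201.3). Ribosomal protein genes have no eligible sequence and could hold none.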

How the data were processed

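Members, gene lists and words were chosen with earlier results of these data known. The authors deposited narrowPeak lists for each replicate, for the pooled alignments and for the optimal set. Their signal column is the strength that the authors' peak caller gave each region, per the file headers and listings, and another column gives the summit offset. The aligner, the peak caller and the threshold of the optimal list were not stated in the labels or file headers. The control alignment was not analysed here. Only dm6 lists were used. Read depth is unknown. Summits were placed on Ensembl BDGP6 gene models and on the Release 6 sequence. A region's replicate signal was the highest among that replicate's regions overlapping it by at least 1 bp. Mean differences between classes were tested by two-sided permutation of regions (100000 permutations), with normal intervals, shares by Fisher's exact test, and words by exact binomial tests, each adjusted by the Benjamini-Hochberg procedure. Counts and shares carry exact intervals (95%). Words overlapping one another were counted separately. Genes named were the 15 strongest members, the 10 genes holding most members, and up to 4 per list by strongest member, together with the members nearest to the distance limit and farthest from a TSS. In all, 29 symbols of the lists matched no gene name and were not used. The result of 1 list is not reported here. The hexamer and permutation tests were tested on simulated data. The simulated summit and flank windows had the same base composition, so they do not address the difference in GC content. Python 3.11.15, numpy 2.4.6, scipy 1.17.1 and pandas 2.3.3 were used. The labels call the replicates biological. Nothing in them says whether these came from separate cultures of flies, so what their spread covers is not known.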

Additional observations from a re-analysis of the deposited data

How the results depend on the processing

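The rule's distance set the number of members, which was 1553 at 2500 bp, 493 at 10000 bp, 1547 with the start sites of canonical transcripts alone and 452 in the 3417 strongest optimal regions. Host genes numbered 226 at 10000 bp and 262 in those 3417 regions. The difference in the share found by both replicates from near intronic regions was −3.74 percentage points with 50% reciprocal overlap, −0.302 with whole replicate lists and −2.37 at 10000 bp, none called. From promoter regions it turned to 0.402 with whole lists and was −3.41 at 10000 bp, neither called. With flanks at 500 bp the GC difference was −0.718 from near intronic and −0.150 from promoter regions, and from distal intergenic regions it was 0.800 at 10000 bp and 1.27 in those 3417 regions, none called. Words gained at the summit numbered 2 with flanks at 500 bp, 0 with windows of 25 bp to either side (exact binomial test, 0 at an unadjusted p under 0.05) and 0 in those 3417 regions (2 unadjusted). Words lost numbered 3, 1 and 2 in these settings and 3 to 5 when 1 replicate's own list was used. Words differing from another class numbered 2 with 25 bp and 0 in those 3417 regions (Fisher's exact test, 6 unadjusted). In those 3417 regions the share of genes holding a member moved by over 1.5 times also for axon guidance and adhesion (13.8%), neuronal channels (2.04%) and RNA-binding proteins (20.8%), and at 10000 bp for the JNK (50%) and insulin and TOR lists (25%). The cause of these changes was not tested. Under every alternative tried for them, the signal differences kept their calls, the dip itself (−14.1 to −9.86) stayed past the threshold, and the hexamer counts (320 to 414 gained, 500 to 623 lost) stayed within 1.5 times. Thinning neighbours within 500 bp, chosen after seeing the data, left 976 members and 426 host genes. Depth is unknown, and 2 libraries of 1 group limit every statement on spread.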
